A study of Mus musculus with 10 samples.

Results

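The mitochondrial ribosomal protein genes were examined in the chromatin of mouse neural stem and progenitor cells (NSPCs) that were quiescent, activated or reactivated. Members were the protein-coding autosomal genes whose symbol starts with *Mrpl* or *Mrps* followed by a digit, without pseudogene symbols. There were 78 of them, 49 *Mrpl* and 29 *Mrps*, among 20807 protein-coding autosomal genes of GENCODE M21, and they lay on 17 chromosomes. All 78 were accounted for, and 74 had a promoter ATAC-seq peak in every library and could be compared in strength.

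The mitochondrial ribosome makes the few membrane proteins of the respiratory chain that mitochondrial DNA encodes. Its ribosomal RNAs come from that DNA, whereas its proteins are encoded in the nucleus, made in the cytosol and imported. *Mrpl* symbols stand for proteins of the large subunit, which forms peptide bonds, and *Mrps* symbols for those of the small subunit, which reads the messenger RNA. Some symbols do not follow the structure, since the products of *Mrps30* and *Mrps18a* sit in the large subunit and that of *Mrps36* is known as part of the 2-oxoglutarate dehydrogenase complex.

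NSPCs came from the brains of C57BL/6 mice at postnatal day 5 and were grown as primary cultures, which hold stem and progenitor cells together. Activated NSPCs grew with the mitogens EGF and FGF2, each at 20 ng/ml. For quiescence, EGF was left out, FGF2 stayed at 20 ng/ml and the signalling protein BMP4 was added at 25 ng/ml, which stops these cells from dividing, for 4 days by the sample labels, whereas the study's methods give a shorter time before ATAC-seq. Reactivated NSPCs had the same BMP4 treatment and then 9 to 12 days in the activating medium. ATAC-seq, in which the Tn5 transposase cuts open chromatin, was done on 2 libraries per state, and ChIP-seq for H3K4me3, a histone mark of active promoters, on 1 library per state in quiescent and activated NSPCs. Each deposited list gives peaks of a single library with their fold enrichment, the pileup of reads over the background of that library. A change in openness per cell and a change in the share of cells that are open cannot be told apart in such cultures.

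The ATAC-seq lists held 47323 to 60881 peaks in quiescent and activated NSPCs and 106586 to 107137 in reactivated NSPCs, and the H3K4me3 lists held 15980 and 17186. All 6 markers of neural stem and progenitor cells that were checked had a promoter peak in every ATAC-seq library and H3K4me3 in both states. Of 11 markers of oligodendrocytes, microglia, blood and endothelium on autosomes, none had a peak in all 6 libraries and 8 had none in any, whereas 3 of 4 neuronal markers had a peak in all 6.

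Promoter sequences of 69 members were matched by symbol in RefSeq (GRCm38.p6), as 300 bases each. The stretches below are the 150 bases directly before an annotated start, 5′ to 3′ on the strand of the gene, from 6 members that carry the results. *Mrpl2*, *Mrpl34* and *Mrps22* differed in strength between states, *Mrpl58* lacked a peak in a quiescent library, *Mrps12* faces another gene of mitochondrial translation, and *Mrpl45* had the lowest H3K4me3. Capitals mark matches, on either strand, to GCGCNTGCG (NRF1), CCGGAAG (ETS factors such as GABP), CCAAT (NFY), GGGCGG (Sp1) or CACGTG (E-box).
Mrpl2, chr17:46646071-46646220, plus strand: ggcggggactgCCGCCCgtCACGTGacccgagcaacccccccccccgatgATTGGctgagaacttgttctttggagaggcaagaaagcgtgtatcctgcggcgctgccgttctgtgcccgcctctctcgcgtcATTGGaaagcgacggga
Mrpl34, chr8:71464776-71464925, plus strand: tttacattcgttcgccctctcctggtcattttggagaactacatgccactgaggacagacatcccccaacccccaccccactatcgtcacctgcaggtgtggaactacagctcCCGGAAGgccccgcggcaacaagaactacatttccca
Mrpl45, chr11:97315566-97315715, plus strand: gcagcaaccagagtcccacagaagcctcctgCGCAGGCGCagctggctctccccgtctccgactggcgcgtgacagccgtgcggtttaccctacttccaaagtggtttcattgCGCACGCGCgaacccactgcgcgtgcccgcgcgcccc
Mrpl58, chr11:115403602-115403751, plus strand: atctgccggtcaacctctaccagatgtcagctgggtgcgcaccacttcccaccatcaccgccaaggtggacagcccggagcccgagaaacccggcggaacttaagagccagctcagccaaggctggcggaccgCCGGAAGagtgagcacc
Mrps12, chr7:28741822-28741971, minus strand: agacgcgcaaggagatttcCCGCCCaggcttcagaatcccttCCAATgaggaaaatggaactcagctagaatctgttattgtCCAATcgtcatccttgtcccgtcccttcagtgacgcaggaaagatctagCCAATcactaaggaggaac
Mrps22, chr9:98601680-98601829, minus strand: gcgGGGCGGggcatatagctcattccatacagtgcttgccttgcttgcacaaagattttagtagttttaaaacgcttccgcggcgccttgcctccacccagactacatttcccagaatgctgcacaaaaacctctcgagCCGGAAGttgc

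NRF1 and the ETS factor GABP are known to drive many nuclear genes for mitochondria. In the 300 bases around the starts, an NRF1 match was found in 18 of 69 members (26.1%), against 10.2% of all 15687 genes with a promoter sequence and 16.7% of the 8885 of them that were open in every library. An ETS match was found in 26 members (37.7%), against 13.6% and 20.8%. YY1, another factor known at such promoters, has AANATGGCG as its motif, which was found in 11 members (15.9%), against 3.80% and 6.24%. These 3 motifs were therefore at higher shares in members than in either set of genes, as a description with no test.

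The general promoter motifs were not at higher shares in members. NFY matches were found in 39.1% of members and 41.7% of all genes, and Sp1 matches in 49.3% of members, 51.7% of all genes and 71.4% of the open ones. TATAAA and CACGTG were each found in 5 members (7.25%), against 14.4% and 9.22% of all genes and 7.57% and 11.8% of the open ones. The median GC content of member promoters was 58.7%, between the 57.3% of all genes and the 61.7% of the open ones. A match is not a binding site, and the lack of one says only that these letters are not in this window.

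In the stretches printed above, *Mrpl45*, whose product lies at the exit of the large subunit, holds a pair of NRF1 matches, and *Mrps12*, whose product helps to form the decoding centre, holds 3 CCAAT boxes. *Mrps12* is transcribed away from *Sars2*, which encodes the mitochondrial seryl-tRNA synthetase. Such a layout was common. A protein-coding gene on the opposite strand started within 1 kb upstream of 29 of 78 members (37.2%), against 11.3% of all protein-coding autosomal genes and 19.0% of the 11331 open ones. A peak between such starts cannot be assigned to a single gene. *Mrpl46* and *Mrps11* form such a pair with each other and share a single peak, so their values are 1 measurement, although they are counted below as 2 genes. *Mrpl46* (ENSMUSG00000030612.6) lies at chr7:78775236-78783531 on the minus strand.

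**Figure D1:**
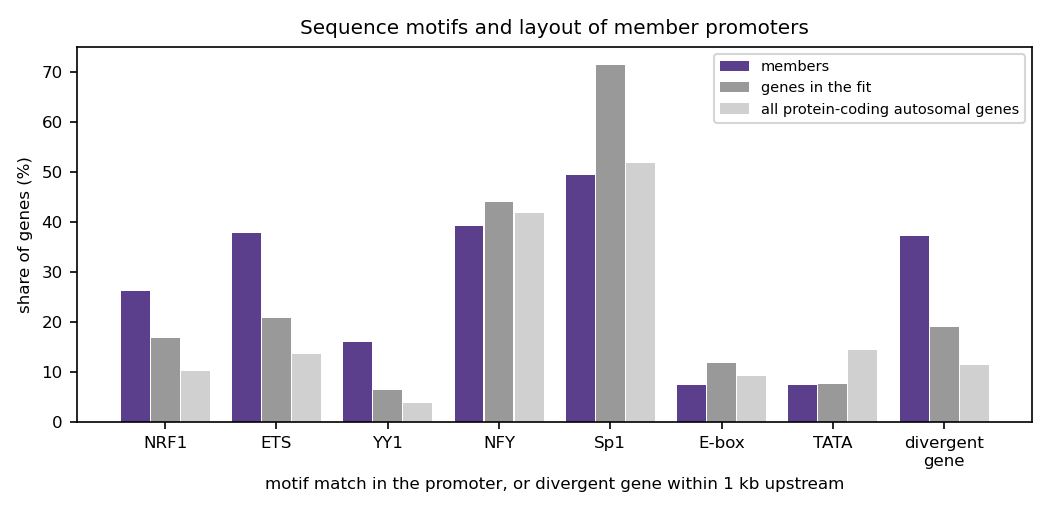
Share of genes, in percent, with a match to each motif in the 300 bases around a RefSeq start, and with a divergent protein-coding gene within 1 kb upstream, for members, genes open in every ATAC-seq library and all protein-coding autosomal genes. NRF1 (26.1% of members), ETS (37.7%), YY1 (15.9%) and divergent genes (37.2%) are more frequent in members than in both other sets, whereas NFY, Sp1, E-box and TATA matches are not.

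The first question was whether these promoters close in quiescence. A promoter was open in a library when a peak overlapped 1 kb on either side of any annotated start of the gene. In all 6 libraries 74 of 78 members (94.9%) were open, whereas 54.5% of all protein-coding autosomal genes were, and 86.9% of the 12688 genes with H3K4me3 in both states. Both quiescent libraries had a peak at 75 members, both activated libraries at 77 and both reactivated libraries at 78, against 56.9%, 57.3% and 66.4% of all genes. No member was open in both libraries of the quiescent or the activated state and closed in both libraries of the other, which was also rare over all genes, at 0.779% for quiescent and 0.947% for activated NSPCs. Among the 74 cytosolic ribosomal protein genes, which build the ribosome of the cytosol, 72 were open in all 6 libraries.

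Each of the 4 members that lacked a peak somewhere lacked it in 1 library only, and the other library of that state had a peak. *Mrpl58* encodes a peptidyl-tRNA hydrolase that became part of the large subunit. It had no peak in quiescent library 1, a fold enrichment of 2.98 in quiescent library 2, 6.37 and 7.70 in the activated libraries, and 9.57 and 9.80 in the reactivated libraries. The peak was thus missing or, by fold enrichment as deposited, at its weakest in the quiescent libraries. *Mrpl33*, a small protein with a bacterial counterpart, also lacked a peak in quiescent library 1, and had 5.04 in quiescent library 2, 4.77 and 3.14 in the activated libraries, and 9.87 and 10.4 in the reactivated libraries.

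*Mrpl27*, whose bacterial counterpart reaches the site of peptide bond formation, had 4.60 and 3.36 in the quiescent libraries, 4.38 in activated library 1 and none in activated library 2, and 8.48 and 10.6 in the reactivated libraries. The strongest *Mrpl27* peaks did not share bases across all libraries, so these values set different sites of the promoter side by side. *Mrps34* had the lowest mean percentile of all members, over the 5 lists in which it had a peak. Its fold enrichment was 3.12 in quiescent library 1, 3.98 and 3.78 in the activated libraries, and 4.30 and 3.88 in the reactivated libraries, and no peak was called in quiescent library 2. As in *Mrpl58*, its quiescent values were missing or, as deposited, below those of the other states. Of the 11331 genes open in every library, 88.0% had both reactivated values above both quiescent ones as deposited. Both quiescent values were below both activated ones at 35.5%. These 4 members were left out of the comparison of strengths, so their differences were not tested. Depth sets which weak peaks are called, so a missing peak is not proof of closed chromatin, and H3K4me3 was present at all 4 promoters in both states.

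Within a list, member peaks ranked high. The median fold enrichment over members was 7.51 and 6.73 in the quiescent libraries, 8.89 and 8.17 in the activated libraries, and 10.5 and 12.0 in the reactivated libraries. The same median over all genes with a promoter peak was 7.49 and 7.23, 8.89 and 7.65, and 10.8 and 11.4, so members sat near the typical open promoter in each library. As percentiles of all peaks in a list the members' medians ran from 83.8 to 90.5, against 82.3 to 89.0 over all open promoters. Percentiles are not comparable between states, because the reactivated lists hold more peaks.

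Members differed widely from each other. The 3 with the highest mean percentile over the 6 lists were *Mrpl39* (99.5), *Mrpl50* (99.3) and *Mrpl18* (99.1), all proteins of the large subunit. *Mrpl39* had 15.8 and 17.9 in the quiescent libraries, 18.0 and 15.4 in the activated libraries, and 17.4 and 19.8 in the reactivated libraries. The states overlapped at this promoter. The 3 lowest among members open in every library were *Mrps5* (57.2), *Mrpl10* (58.2) and *Mrpl4* (61.0), of which *Mrpl10* encodes the base of the stalk that recruits translation factors and *Mrpl4* a protein of the exit tunnel. *Mrps5* had 3.55 and 3.74, 4.91 and 4.34, and 7.47 and 7.76 in the same order of states, with no overlap between them as deposited. Over all genes, 35.5% had quiescent below activated values in this way, and 78.4% had reactivated above activated values. Across the 74 members the Pearson r between the 2 libraries of a state, on centred log2 fold enrichment, was 0.89 in quiescent, 0.87 in activated and 0.93 in reactivated NSPCs. That correlation is across genes of the same libraries and is given as a description.

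**Figure D2:**
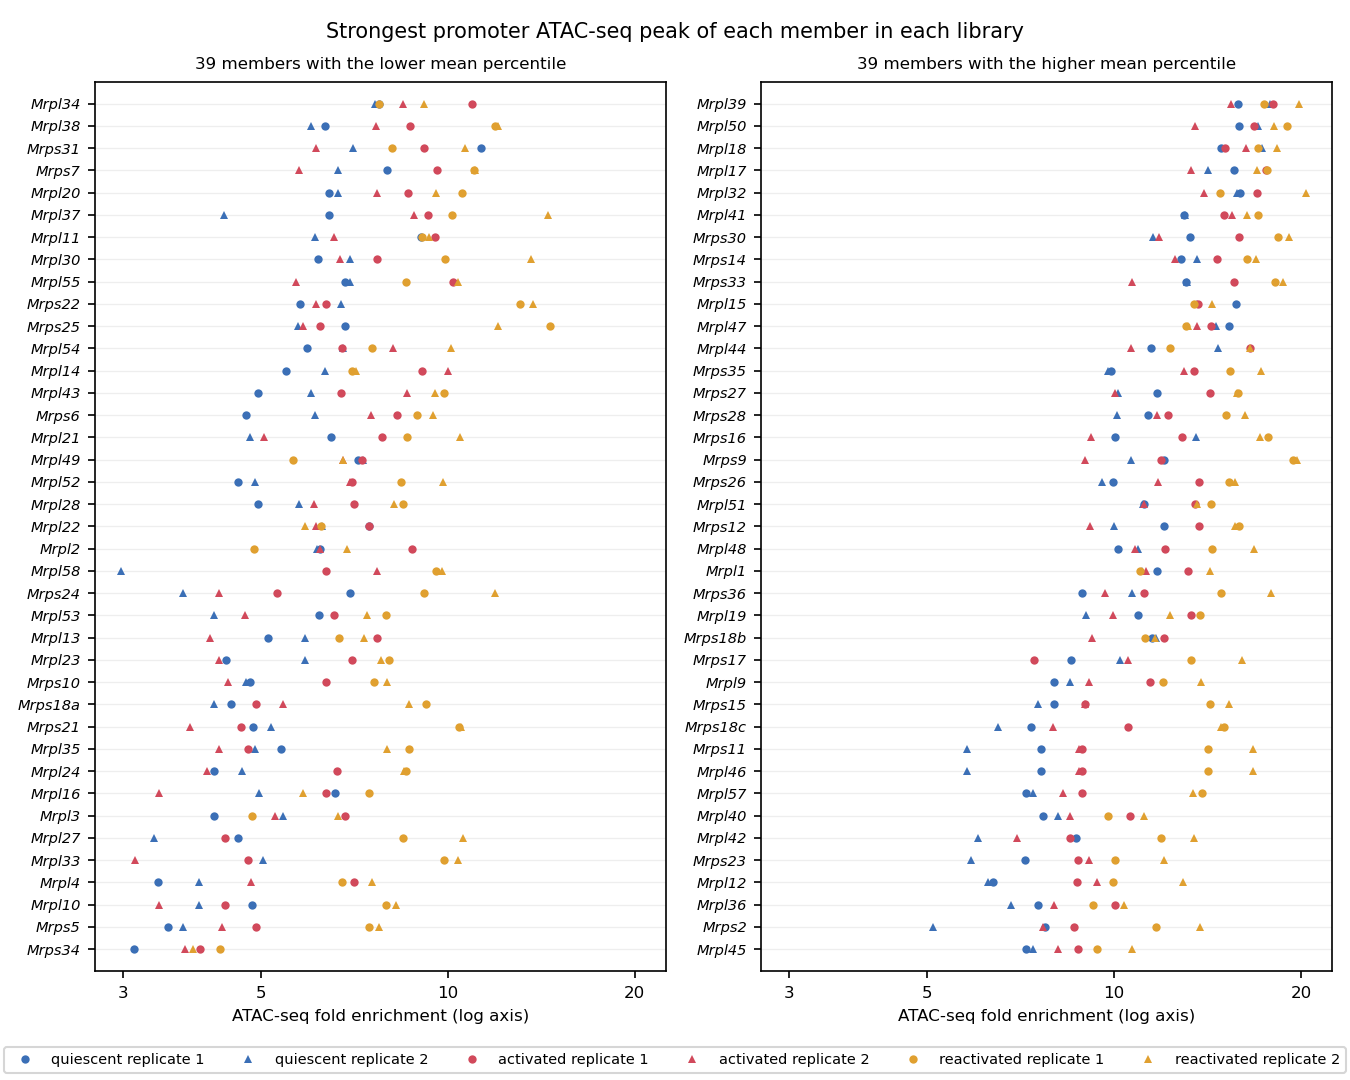
Fold enrichment of the strongest promoter ATAC-seq peak of each of the 78 members (log axis), with 1 point per library, coloured by state and shaped by replicate, and members ordered by mean percentile from bottom to top, the lower 39 in the left panel and the higher 39 in the right. Values run from 2.98 (*Mrpl58*, quiescent library 2) to 20.4 (*Mrpl32*, reactivated library 2), and reactivated points lie to the right for most members.

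Peaks sat close to annotated starts, which was not measured over all genes. A peak had to overlap 1 kb on either side of a start, and members had a median of 4 starts. The summit of the strongest peak, as the median over libraries, lay within 100 bp of the nearest annotated start in 70 of 78 members and within 250 bp in 75, with a median position of -23.5 bp, just upstream. The exceptions beyond 250 bp were *Mrps18b* (-409.5 bp), *Mrps28* (388.5 bp) and *Mrpl54* (270.5 bp), which are named because they are the only ones. In 70 members the strongest peaks of all libraries shared at least 1 base, and in 8 they did not. *Mrps6* is among the 70 with only 1 shared base, so sharing bases does not always mean the same site. At *Mrpl48* the strongest peak was at another start of the gene in both reactivated libraries, and at *Mrpl14* the strongest peaks of the reactivated libraries were neighbours that did not touch.

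**Figure D3:**
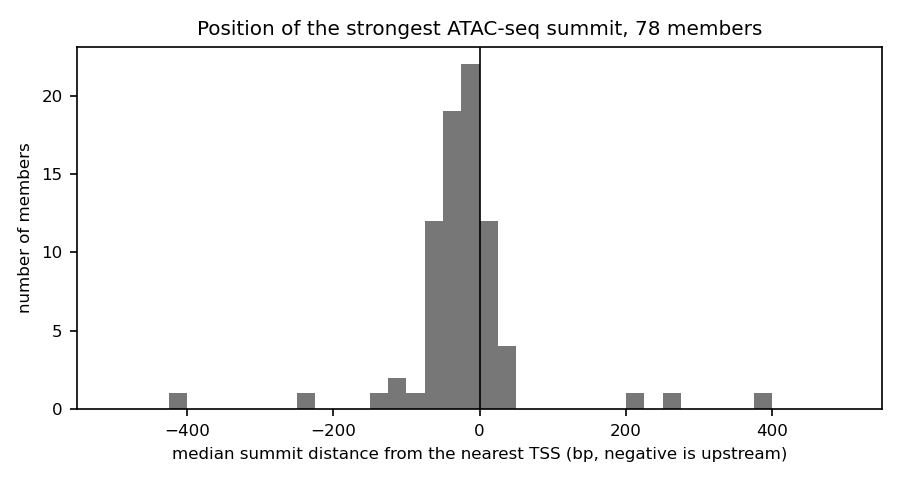
Number of members by the distance in bp from the nearest annotated start to the summit of the strongest promoter ATAC-seq peak, as the median over the libraries with a peak (bins of 25 bp, negative values upstream). The summits of 70 of 78 members lie within 100 bp of a start.

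For the comparison of strengths, log2 fold enrichment was centred on the median of each library over the 11331 genes open in all 6 libraries, and limma was fitted over all of them with Benjamini-Hochberg adjustment. A difference is therefore relative to the typical open promoter. Centring matters, because the fold enrichment as deposited was higher in reactivated libraries at most promoters.

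Between quiescent and activated NSPCs, no member passed the test. None of the 74 was called at an adjusted p under 0.05 by limma, with 1.62% of all genes called, and 8 had an unadjusted p under 0.05, as did 1969 of the 11331 genes. The median log2 difference of members, quiescent minus activated, was 0.02 against 0.03 over all genes (-0.14 against -0.13 without centring), and single members ran from -0.61 to 0.45. As deposited, the quiescent values lay below both activated values without overlap at 28 members, against 35.5% of all genes, and above them at 3 members, against 7.43%.

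The largest differences belonged to *Mrpl37*, *Mrpl14* and *Mrpl4* on the quiescent-low side. *Mrpl37* had 6.44 and 4.36 in the quiescent libraries and 9.27 and 8.82 in the activated libraries, a log2 difference of -0.61 ± 0.20 (SE, limma adjusted p = 0.161). *Mrpl14*, a protein at the face of the large subunit that meets the small one, had 5.49 and 6.34 against 9.08 and 10.01, and *Mrpl4* had 3.42 and 3.97 against 7.06 and 4.81. In all 3 the quiescent values were below the activated ones, yet the differences did not pass the test across all genes. Without centring *Mrpl14* did pass (-0.69, limma adjusted p = 0.0466), as the 1 member called in that fit. Its centred difference was -0.34 without activated library 2 and -0.72 without activated library 1. On the other side were *Mrpl16* (0.45), *Mrps31* (0.41) and *Mrps21* (0.41), whose libraries overlapped in *Mrpl16* and *Mrps31*. The *Mrpl16* difference depended on single libraries, at 0.12 without activated library 2 and 0.78 without activated library 1.

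Reactivation was compared with the state before quiescence. Of the 74 members, 10 differed between reactivated and activated NSPCs (13.5%), with 12.3% of all genes called. Relative to the typical promoter 4 were higher in reactivated NSPCs, against 7.02% of all genes, and 6 were lower, against 5.33%. The members' share was thus near the background in each direction. Of those called, 3 of the 4 higher members were *Mrps* genes (*Mrps21*, *Mrps25* and *Mrps22*) and the other was *Mrpl10*, and all 6 lower members were *Mrpl* genes. The median log2 difference was -0.21 in 46 *Mrpl* genes and 0.10 in 28 *Mrps* genes, against -0.03 over all genes. The difference between the classes was not tested.

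*Mrps21*, a small protein with a bacterial counterpart, rose the most. It had 4.86 and 5.20 in the quiescent libraries, 4.64 and 3.85 in the activated libraries, and 10.4 and 10.5 in the reactivated libraries, a log2 difference of 0.80 ± 0.14 (SE, limma adjusted p = 0.0103) from activated NSPCs. As deposited, both reactivated values lay above all 4 others. Over all genes, 78.4% had them above both activated values and 88.0% above both quiescent values. The gene (ENSMUSG00000054312.6) lies at chr3:95862634-95871519 on the minus strand. *Mrps22*, mutated in a human mitochondrial disease, had 6.37 and 6.13 in activated and 13.1 and 13.7 in reactivated libraries, and *Mrps25* had 6.23 and 5.85 and then 14.6 and 12.0. *Mrpl10* went from 4.38 and 3.42 to 7.94 and 8.25, a log2 difference of 0.56 ± 0.15 (SE, limma adjusted p = 0.0359). In none of the 4 did the libraries of both states overlap as deposited, which was also so in this direction at 78.4% of all genes. *Mrps24* had 5.31 and 4.28 and then 9.15 and 11.9, and its difference of 0.63 ± 0.24 did not pass the test (limma adjusted p = 0.108).

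*Mrpl14* (ENSMUSG00000023939.7, chr17:45686322-45698495, plus strand) fell the most relative to the typical promoter, with 9.08 and 10.01 in activated and 7.01 and 7.13 in reactivated libraries, a log2 difference of -0.94 ± 0.17 (SE, limma adjusted p = 0.0109). Its reactivated peaks were the neighbours described above, so this value sets different pieces of the promoter against each other. *Mrpl2*, whose bacterial counterpart lies near the site of peptide bond formation, had 8.77 and 6.22 against 4.88 and 6.89, a difference of -0.85 ± 0.17. These values overlap before centring. *Mrpl34* had 10.9 and 8.46 against 7.73 and 9.17 (-0.70 ± 0.14), and *Mrpl49* had 7.26 and 6.79 against 5.64 and 6.78 (-0.69 ± 0.14). *Mrpl22*, which lines the exit tunnel, had 7.47 and 6.13 against 6.25 and 5.89, and *Mrpl47*, at the tunnel's opening, had 14.3 and 13.6 against 13.1 and 13.1. At all 6 the mean fold enrichment as deposited was lower in reactivated than in activated libraries.

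As deposited, both reactivated values lay above both activated values at 50 of 74 members, against 78.4% of all genes, and below them at 3, against 1.69%. Without centring, limma called 27 members higher and 0 lower, among 5605 and 14 of all genes, and the members' median difference turned from -0.16 to 0.35. The 6 lower members kept a negative difference without centring, but none of them passed the test. Without reactivated library 1 or 2, 0 members were called by limma, with 11 and 17 at an unadjusted p under 0.05, but the share of all genes called fell to 0.0% and 0.309% as well. Without activated library 1 or 2, 4 and 3 members were called, with 8.07% and 4.06% of all genes. The 10 members kept the direction of their differences in all 4 of these fits.

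Against quiescent NSPCs, 16 of 74 members differed in reactivated NSPCs (21.6%), with 26.5% of all genes called. Of these 3 were higher, against 12.9% of all genes, and 13 were lower, against 13.5%. The median log2 difference was -0.06 in members and -0.04 over all genes, and it was -0.21 in *Mrpl* and 0.07 in *Mrps* genes. In this comparison 12 of 46 *Mrpl* genes and 1 of 28 *Mrps* genes, *Mrps18b*, were lower. The difference between the classes was not tested. The 2 comparisons share the reactivated libraries, and *Mrpl2*, *Mrpl22*, *Mrpl34*, *Mrpl47* and *Mrpl49* were called lower in both.

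The 3 higher members were *Mrps18c*, one of several counterparts of a bacterial small subunit protein, and the pair *Mrpl46* and *Mrps11*, so these 3 genes stand for 2 separate peaks. At the start shared by *Mrpl46* and *Mrps11*, the quiescent libraries had a fold enrichment of 7.62 and 5.81, followed by 8.89 and 8.78 in the activated libraries, and 14.2 and 16.8 in the reactivated libraries, a log2 difference of 0.55 ± 0.17 (SE, limma adjusted p = 0.0349) from quiescent NSPCs. *Mrps18c* had 7.36 and 6.50, 10.5 and 7.99, and 15.0 and 14.9, a difference of 0.45 ± 0.14 (SE, limma adjusted p = 0.0428). In both cases, as deposited, the order of states was quiescent, activated and reactivated without overlap. Over all genes, 35.5% had both quiescent values below both activated ones, and 78.4% had both reactivated values above both activated ones. The centred log2 differences between quiescent and activated NSPCs were -0.25 at both starts and did not pass the test (limma adjusted p = 0.472 and 0.410). *Mrpl37*, with 6.44 and 4.36 against 10.2 and 14.5, had a difference of 0.53 ± 0.20 that did not pass the test (limma adjusted p = 0.0747).

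Among the lower members, *Mrpl49* had the largest difference, with 7.17 and 7.29 in quiescent and 5.64 and 6.78 in reactivated libraries (-0.89 ± 0.14, limma adjusted p = 0.0039). *Mrpl47* had 15.3 and 14.6 against 13.1 and 13.1, and *Mrpl22* 7.47 and 6.27 against 6.25 and 5.89. In these 3 both reactivated values were below both quiescent values as deposited as well. *Mrpl2* had 6.23 and 6.15 against 4.88 and 6.89, and *Mrpl34* 7.76 and 7.62 against 7.73 and 9.17. *Mrpl15*, with 15.7 and 13.6 against 13.5 and 14.4, and *Mrps18b*, with 11.5 and 11.7 against 11.2 and 11.7, had nearly the same fold enrichment in both states.

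The other 6 lower members, *Mrpl1*, *Mrpl17*, *Mrpl18*, *Mrpl32*, *Mrpl39* and *Mrpl50*, had strong peaks in every library, from 11.0 to 20.4, and their log2 differences ran from -0.53 to -0.44. All 6 turned positive without centring, as did *Mrpl34*. Calls went with level over all genes too. Among genes with a mean percentile over 90, 20.0% were called lower and 1.56% higher in reactivated than in quiescent NSPCs, against 9.21% and 20.6% of the other genes, and 9 of the 27 members over 90 were called lower. Cyclic loess, a normalization that removes a trend with level, was chosen after seeing the data. With it 3 members were higher and 8 lower (7 *Mrpl* and 1 *Mrps*), and 9 of the 16 calls were kept, with 18.2% of all genes called.

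As deposited, both reactivated values lay above both quiescent values at 59 of 74 members, against 88.0% of all genes, and below them at 3, against 1.53%. Without centring 47 members were called higher and 0 lower, among 7537 and 16 of all genes, and the members' median difference turned from -0.06 to 0.60. Without reactivated library 1 or 2 the number of calls was 2 or 3, and without quiescent library 2 it was 7, while 2.14%, 5.57% and 12.7% of all genes were called. Of the 6 stem and progenitor markers, *Sox2* (-0.99) and *Vim* (-0.51) were also called lower against quiescent NSPCs, and *Vim* (-0.55) against activated NSPCs. Their part in the members' values was not tested.

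**Figure D4:**
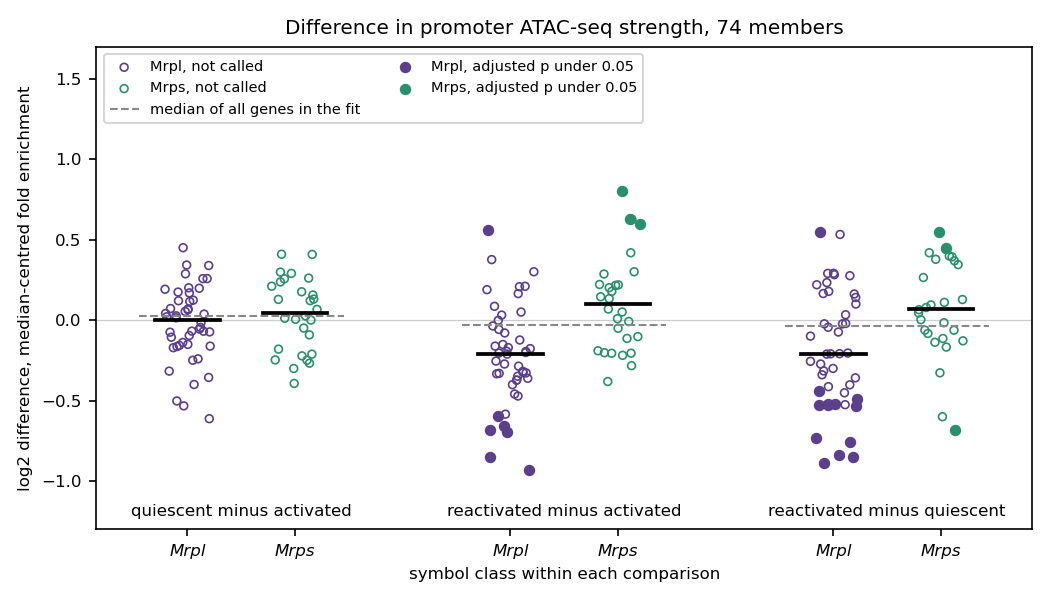
Log2 difference in median-centred promoter fold enrichment for the 74 members open in every library, by symbol class, in the 3 comparisons, with filled points at a limma adjusted p under 0.05, black bars at class medians and dashed lines at the median of all genes. No point is filled for quiescent minus activated, and the *Mrpl* medians lie at -0.21 and the *Mrps* medians at 0.10 and 0.07 in the comparisons with reactivated NSPCs, whereas without centring all 4 of these medians are above 0.

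H3K4me3 was found at all 78 members in both states, against 61.0% of all protein-coding autosomal genes. The median fold enrichment was 46.6 in quiescent and 41.9 in activated NSPCs, against 38.0 and 35.8 over all genes with a peak. As percentiles of the lists the members' medians were 83.2 and 78.5, against 67.2 and 65.3. The members' percentiles were thus above those of all marked genes for H3K4me3, while for ATAC-seq they were close to those of all open promoters. The 74 cytosolic ribosomal protein genes were all marked as well, with higher medians of 49.1 and 49.1. The large and small subunit symbols were close, with quiescent medians of 46.9 and 45.5 and activated medians of 41.9 and 41.9. With 1 library per state these values have no replicate check and no test.

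The ratio between the states, centred on the median of all 12688 genes marked in both, had a median of -0.01 on the log2 scale over members, with 38 above 0 and 40 below and an SD of 0.23 between members, against 0.29 between all genes. *Mrpl10* had the highest ratio, with 45.3 in quiescent and 28.6 in activated NSPCs (0.55 centred log2). *Mrpl9*, with a bacterial counterpart on the side of the large subunit, had the lowest, with 42.0 and 58.5 (-0.59). The lowest fold enrichment was at *Mrpl45*, with 27.7 in quiescent and 18.8 in activated NSPCs.

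The length covered by H3K4me3 peaks at a gene, summed over its starts, had a member median of 2012.5 bp in quiescent and 1978.5 bp in activated NSPCs, against 2219 and 2103 bp over all genes. By the mean of both states, *Mrpl38* (1234 and 1162 bp), *Mrps33* (1372 and 1264 bp) and *Mrpl22* (1308 and 1346 bp) had the least covered length. *Mrpl48* (6273 and 5815 bp), *Mrps18b* (4322 and 4470 bp) and *Mrpl2* (4550 and 4036 bp) had the most by the same mean. At *Mrpl48* and *Mrpl2* this length sums separate peaks, the strongest of which was 4180 and 3846 bp and 2538 and 2374 bp wide, and all 3 genes have a divergent gene at a start. At *Mrpl38* the least covered length went with the highest fold enrichment among members in quiescent NSPCs, 67.5.

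**Figure D5:**
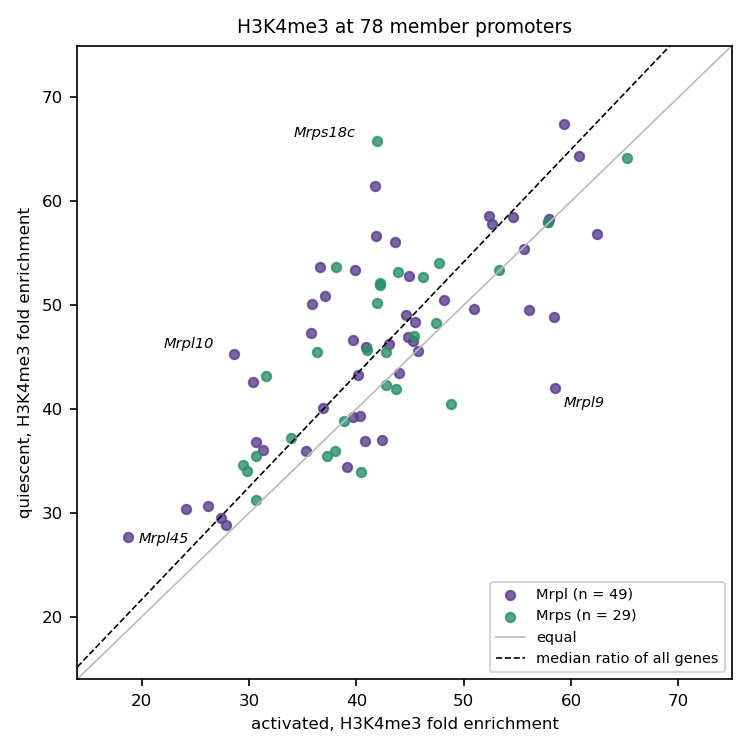
H3K4me3 fold enrichment at the 78 member promoters in quiescent against activated NSPCs, with 1 point per gene, a solid line of equal values and a dashed line at the median ratio of all marked genes. Members spread on both sides of the dashed line, with *Mrpl10* (45.3 and 28.6) far above it and *Mrpl9* (42.0 and 58.5) far below it.

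Other genes of mitochondrial translation were taken from lists of known members. All 72 of them on autosomes had H3K4me3 in both states, and 68 were open in every ATAC-seq library. The exceptions were *Gadd45gip1*, a protein of the large subunit outside the symbol rule, and the release factor gene *Mtrf1*, each open in 3 libraries, *Ngrn*, an assembly factor, in 4, and the initiation factor gene *Mtif3* in 5. None of the lists had a call between quiescent and activated NSPCs by limma, with 12 genes in all at an unadjusted p under 0.05.

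Between reactivated and activated NSPCs, *Mtif2*, which encodes an initiation factor, and *Pdf*, a deformylase of nascent peptides, were higher among 9 translation factors, and *Rbfa* and *Mterf4*, which act in ribosome assembly, among 22 assembly and rRNA modification genes. Only 1 translation factor was called higher with quantile normalization and 1 with cyclic loess, when 17.2% and 10.2% of all genes were called. *Mterf4* had 4.38 and 4.56 in activated and 12.8 and 13.0 in reactivated libraries, a log2 difference of 1.03 ± 0.15 (SE, limma adjusted p = 0.00813). *Chchd1*, a small subunit protein, was lower at -0.77 ± 0.20. By limma 0 of 22 synthetases and 0 of 11 genes of mitochondrial DNA expression were called, with 4 and 2 at an unadjusted p under 0.05 and 12.3% of all genes called. Without centring 16 synthetases and 5 genes of mitochondrial DNA expression were called higher, and 6 translation factors and 14 assembly genes. In these 4 lists 0 were then lower, when 49.6% of all genes were called.

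Against quiescent NSPCs, where 12.9% of all genes were called higher and 13.5% lower, 7 of the 22 assembly genes were higher (*Rbfa*, *Mterf4*, *Mrm2*, *Mrm3*, *Malsu1*, *Rpusd4* and *Trub2*) and 4 lower (*Mettl17*, *Mterf3*, *Noa1* and *Gtpbp10*). These counts fell to 4 higher and 2 lower with quantile normalization and to 2 higher and 0 lower with cyclic loess, when 21.8% and 18.2% of all genes were called. Without centring 14 were higher and 0 lower, when 66.7% of all genes were called. Of the translation factors *Gfm2*, *Mtfmt* and *Pdf* were higher and *Mtrf1l* lower. For this list 2 were higher and 1 lower with quantile normalization, and 2 higher and 0 lower with cyclic loess. Without centring 7 of the 9 translation factors were higher and 0 lower. *Lars2*, the mitochondrial leucyl-tRNA synthetase, had 6.57 and 6.57 in quiescent and 17.7 and 17.7 in reactivated libraries, and *Polg2*, a subunit of the mitochondrial DNA polymerase, 3.42 and 4.97 and then 14.5 and 14.2, the largest difference of any listed gene at 1.14 ± 0.18. *Tfb2m*, a mitochondrial transcription factor, and *Chchd1* were lower. Without centring *Mterf3*, *Noa1*, *Gtpbp10*, *Mtrf1l* and *Tfb2m* turned positive.

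The cytosolic ribosomal protein genes are set beside the members for comparison, with no test between them. Of 72 in the fit, 0 were called between quiescent and activated NSPCs by limma, with 4 at an unadjusted p under 0.05, 2 were higher and 7 lower in reactivated than in activated NSPCs (12.5%, against 12.3% of all genes), and 1 was higher and 14 lower in reactivated than in quiescent NSPCs (20.8%, against 26.5%). Their median log2 differences were 0.07, -0.21 and -0.23, and without centring the last 2 turned to 0.29 and 0.43, with 20 higher and 1 lower against activated and 32 higher and 0 lower against quiescent NSPCs, when 49.6% and 66.7% of all genes were called. With cyclic loess 1 was higher and 5 lower, and 0 higher and 7 lower, with 10.2% and 18.2% of all genes called. NRF1 matches were in 13.0% of their promoters and ETS matches in 42.6%, against 26.1% and 37.7% in members.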

How the data were processed

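ATAC-seq peak lists of 6 libraries and H3K4me3 peak lists of 2 were used as the authors deposited them. Per the submitters' processing notes, reads were handled with Trim Galore 0.4.0, Bowtie2 2.2.5, Picard 1.88 and SAMtools 1.3.1. The authors called peaks in each library with MACS2 at a false discovery rate of 0.05, after reducing the reactivated reads in number, and H3K4me3 peaks against input in broad mode (broad cutoff 0.01, extension 150 bp). The deposited fold enrichment is a ratio to local background, and the deposited p-value and q-value of each peak are given as −log10. The deposited summit offset gave the position of each summit, and the deposited score was not used. The deposited lists hold no read counts. The study states read numbers per library, which were not used here, and no counting interval was given.

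Coordinates were those of mm10, with starts from GENCODE M21 on GRCm38.p6. Each gene took the highest fold enrichment among peaks within 1000 bp of any start. For 11331 genes with a peak in all 6 libraries, log2 fold enrichment, with no pseudocount, was centred on each library's median and fitted with limma 3.58.1 (R 4.3.3) over the 3 states, with Benjamini-Hochberg adjustment over all genes and a threshold of 0.05. With 2 libraries per state, p-values measure the spread between these libraries. H3K4me3, with 1 library per state, was not tested. Tables and motif searches used Python 3.11.15, numpy 2.4.6 and pandas 2.3.3, and figures matplotlib 3.10.9. The fit was tested on simulated data. Members and gene lists were chosen with earlier results of these data known. Named members were those called, those lacking a peak, and the 3 at each extreme of level, difference and H3K4me3 width. Also named was 1 member at each extreme of H3K4me3 ratio. Those named for summit position or for peaks with few or no shared bases were chosen after their values were seen. Alternatives changed the window, peak threshold, scaling, filter, measure and libraries.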

Additional observations from a re-analysis of the deposited data

How the results depend on the processing

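Calls depended on scaling. Without centring the number of members called was 1 rather than 0 between quiescent and activated NSPCs, with 3.06% of all genes called, 27 rather than 10 between reactivated and activated NSPCs, and 47 rather than 16 between reactivated and quiescent NSPCs. In the last comparison these log2 differences turned positive without centring: *Mrpl1* 0.14, *Mrpl17* 0.22, *Mrpl18* 0.14, *Mrpl32* 0.13, *Mrpl34* 0.13, *Mrpl39* 0.14, *Mrpl50* 0.17, *Gtpbp10* 0.18, *Mterf3* 0.23, *Mtrf1l* 0.090, *Noa1* 0.048 and *Tfb2m* 0.18. The marker *Vim* turned positive as well. The median of all genes moved to 0.48 against activated and 0.62 against quiescent NSPCs. With the sum of fold enrichment times width the counts were 2 and 8, and with genes open in at least 1 library the count against quiescent NSPCs was 10; the cause was not tested. The share of all genes called fell as well, to 3.43% and 17.2% with the sum and to 19.0% with genes open in at least 1 library. Leaving out each library in turn gave 0 to 13 calls against activated and 2 to 18 against quiescent NSPCs, and the lone library of a state was assumed to vary like the other groups. Of the 26 calls, 2 were kept without reactivated library 1 and 3 without reactivated library 2, and none changed direction, while calls over all genes fell as well, to 0.0% and 0.309% against activated and 2.14% and 5.57% against quiescent NSPCs. Cyclic loess, chosen after seeing the data, kept 17, and quantile normalization 19. The window of 500 bp, the 5′ end alone, lists of equal length and summits within the window kept all 26. Replicate numbers did not pair the samples (correlations of 0.00198, 0.0337 and -0.0206 between same-numbered libraries), and with the number as a replicate block the counts were 0, 10 and 16. Members open in every library numbered 63 to 76 under the alternatives. Read numbers were not used here, so what a missing peak can show at a given depth was not assessed.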
